A study of Macaca fascicularis with 28 samples.

Results

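Integrins, laminins and the other genes of the basement membrane were followed through macaque taste buds, the lingual epithelium (LE) beside them, and the top and bottom of the taste bud, with 1 animal behind each sample. The set holds 48 of the 14873 genes named on the array: every gene whose symbol marks it as an integrin or laminin chain, a nidogen or a collagen IV chain, together with COL7A1, COL17A1, COL18A1, HSPG2, AGRN, PLEC and DST. ITGB1BP symbols were left out. A gene with several probe sets was followed by its brightest, judged on the mean log2 intensity of the 28 samples. Among tested genes, those of the hemidesmosome, of collagen IV and of most laminin chains were higher in both kinds of taste bud than in adjacent LE. HSPG2 was lower, and the integrin chains other than ITGA6 and ITGB4 moved in both directions, at shares near those of all tested probe sets. Most of the higher genes took their name from the study's own list of genes higher in these taste buds, so that their direction is not independent evidence.

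The basement membrane is a sheet of matrix under every epithelium, made of a laminin network and a collagen IV network that nidogens and perlecan hold together. Integrins are receptors of 1 alpha and 1 beta chain that bind this sheet and couple it to the cytoskeleton. Basal epithelial cells are anchored by hemidesmosomes, in which the integrin of ITGA6 and ITGB4 and the transmembrane collagen COL17A1 bind laminin outside the cell and PLEC and DST hold keratin filaments inside it, while anchoring fibrils of COL7A1 tie the sheet to the connective tissue below. Taste buds are clusters of taste receptor cells and their progenitors that sit within the stratified epithelium of the tongue and reach down to its basement membrane.

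The tissue came by laser capture microdissection from the tongues of 10 cynomolgus macaques (Macaca fascicularis), with about 5000 cells of 1 animal in each sample and no treatment or genotype named. Animals 1, 3, 4 and 5 gave circumvallate (CV) taste buds, from the posterior tongue, and LE adjacent to CV papillae; animals 1 to 6 gave fungiform (FG) taste buds, from the anterior tongue, and LE adjacent to FG papillae. These 6 animals were 2.6 to 4.5 years old, 2 males and 4 females, and the 4 CV animals were 2 males and 2 females. Animals 7, 8, 9 and 10, 1 male and 3 females aged 3 years, each gave a top and a bottom fraction of CV taste buds, which were processed separately. A captured area is a mixture of cell types, so that fewer cells of a type and less RNA per cell cannot be told apart in any value given here. The arrays were designed for the rhesus macaque. The values are linear GC-RMA intensities in arbitrary units, and the study's minimum of 25 units was taken as the level below which a probe set is near background.

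The labels were checked against marker genes. All 10 markers of differentiated keratinocytes were lower in CV and in FG taste buds than in adjacent LE, and of 6 markers of type II taste cells 5 were higher in CV and 6 in FG taste buds. Of 5 tested type III markers, 4 were higher and 1 lower in CV, and 3 higher in FG. Of 2 tested type I markers, 1 was higher in CV and 1 lower in FG. Array medians lay between 13.57 and 16.75 units, and 37.3% to 40.8% of probe sets reached 25 units. Of basal keratinocyte markers only TP63 was named on the array, and it was at 600.2 to 2100 units in LE adjacent to CV papillae, 205 to 916 in CV taste buds, 129 to 3459 in LE adjacent to FG papillae and 33.9 to 401 in FG taste buds. TP63 was called lower in FG taste buds (log2 change -2.71) and was not called in CV (log2 change -1.21). One library stands apart: the LE adjacent to the FG papillae of animal 3 carried skeletal muscle and stromal transcripts (MYH2 1938, CKM 1741, DCN 1180 and SFRP2 709.6 units), and the FG taste buds of that animal carried MYH2 at 679.6 units. The FG counts are therefore also given without animal 3, with the members whose call it decides.

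Of the 48 members, 5 were hemidesmosome genes, 12 laminin chains, 11 other integrin alpha chains, 7 other integrin beta chains, 5 collagen IV chains and 6 linkers or anchoring genes. The remaining 2 carry an integrin-like symbol but are not integrin subunits (ITGB3BP, a centromere protein, and ITGBL1). COL4A6, ITGBL1, LAMA1 and LAMC3 stayed under 25 units in all 28 samples, and 11 members reached 25 units in every one. A probe set was tested where at least 4 samples of the fit reached 25 units, which held for 38 members in the 20 samples of taste buds and LE. Against adjacent LE, CV taste buds had 24 of these 38 higher and 3 lower (limma on log2 values with the animal as a block, adjusted p of at most 0.05), where 17.3% of all tested probe sets were higher, 18% lower and 35.3% called in either direction. FG taste buds had 21 higher and 5 lower, against 21.1% and 20.2% of all tested probe sets, or 41.2% in either direction. The samples of taste buds and adjacent LE did not overlap for 21 of the 38 members in CV and for 14 in FG, as was so for 35.3% and 18% of all tested probe sets. Outside the group where they were high, ITGB1 in CV and COL4A3 and ITGB3 in FG reached 25 units in fewer than 4 samples, so that they could be tested only because that group was high, and their calls are a description. That count leaves the other kind of taste bud outside. With both kinds as the high side, COL17A1, COL4A1, COL4A3, COL4A4, ITGA2, ITGB1, ITGB3BP, LAMA4 and LAMB3 passed the filter only through taste buds. Fewer than 4 LE samples reached 25 units for each of these, and their higher calls are a description as well. Over genes with a name, 1 probe set each, the shares were 25.1% higher and 16.8% lower in CV, and 27.1% and 19.2% in FG taste buds. Without filter, the median log2 change over all 48 members was 1.02 in CV and 0.84 in FG taste buds, beside -0.06 and -0.20 over all probe sets. With each array centred on its own median, which moved the median change of all tested probe sets from -0.08 to -0.30 in CV and from 0.05 to -0.39 in FG taste buds, the members called were 22 higher and 3 lower in CV and 19 higher and 9 lower in FG taste buds. Without animal 3, FG taste buds had 21 members higher and 2 lower, with the calls of ITGB8, ITGA8 and ITGB2 lost, that of COL7A1 gained and ITGB3 no longer tested. Leaving aside a 5-fold minimum and other choices of probe set or name, no call changed direction in any alternative. Under these alternatives 8 of the 27 CV calls and 17 of the 26 FG calls were always kept. Another probe set of the same gene was called in the opposite direction for 1 CV call and 2 FG calls. The paired test of the study's methods, after Benjamini-Hochberg adjustment, left 8 members higher and none lower in CV.

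How a probe set got its name bears on these counts. The name came from the study's own list of genes higher in taste buds for 21 members, a list drawn up on these samples, and from the annotation of the array for 27. Of the 20 tested members of that list, 20 were higher in CV and 16 in FG taste buds, which is not independent evidence of their direction. Of the 18 tested members that only the annotation names, 4 were higher and 3 lower in CV, and 5 higher and 5 lower in FG taste buds. PLEC is the hemidesmosome gene among those 18.

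**Figure D1:**
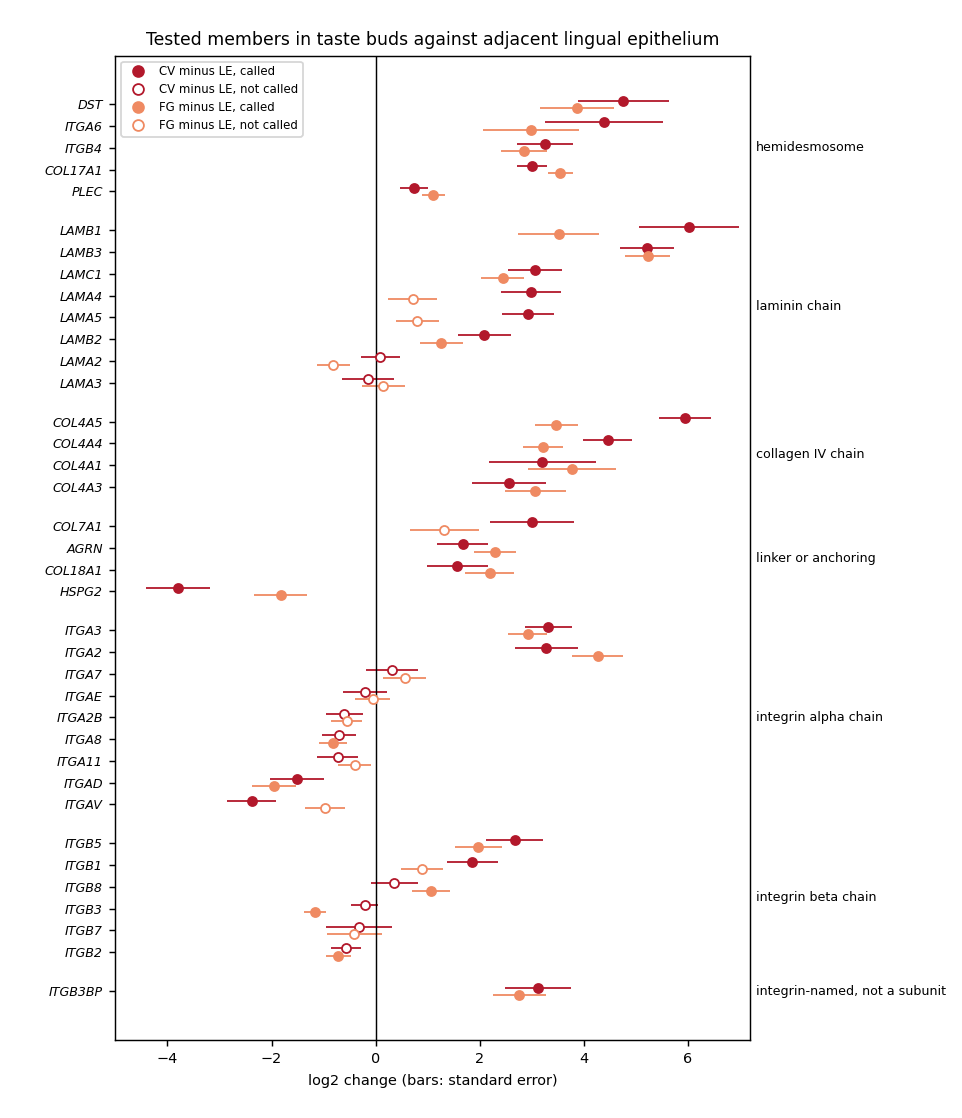
Log2 change of the tested members described here in CV (dark red) and FG (orange) taste buds against adjacent LE, grouped by role; the horizontal axis is the log2 change, bars are standard errors of the limma fit, and filled points passed an adjusted p of 0.05. The 5 hemidesmosome genes and the 4 tested collagen IV chains lie to the right of 0 in both comparisons, and HSPG2 lies to the left.

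All 5 hemidesmosome genes were higher in both kinds of taste bud. ITGA6, the alpha chain of the hemidesmosomal integrin, was at 849, 621, 1508 and 1308 units in CV taste buds of animals 1, 3, 4 and 5 and at 8.84, 60.2, 53.4 and 191 in the LE adjacent to them. In FG taste buds it lay between 1877 and 2079 units (median 2057) and in adjacent LE between 10.2 and 662 (median 499). No LE sample came near a taste bud sample of the same papilla type, and the 6 FG values were close to each other while the LE values were scattered. The difference was 16.1-fold in CV (log2 change 4.39 ± 1.13, adjusted p = 0.0081) and 6.81-fold in FG taste buds (log2 change 2.98 ± 0.92, adjusted p = 0.019); here and below, folds compare geometric means with values under 25 units raised to 25, and ± is the standard error of the fit. Leaving out animal 4 ended both calls, with log2 changes of 4.24, adjusted p = 0.0544 in CV and 3.10, adjusted p = 0.0569 in FG. Another tested probe set of ITGA6 was not called in CV (log2 change -0.44) and was higher in FG taste buds (log2 change 2.63).

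ITGB4, the beta chain of the same integrin, was at 1053, 589, 572 and 239 units in CV taste buds and at 225, 29.8, 28.3 and 53.4 in adjacent LE. FG taste buds had ITGB4 between 599.8 and 1518 units (median 861) and adjacent LE between 73.4 and 166 (median 127). The lowest CV value and the highest LE value were almost the same but came from different animals, and in FG the groups were far apart. ITGB4 was 9.56-fold higher in CV (log2 change 3.26 ± 0.54, adjusted p = 0.000402) and 7.23-fold higher in FG taste buds (log2 change 2.85 ± 0.44, adjusted p = 0.000217).

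COL17A1, the collagen that crosses the membrane in hemidesmosomes, was at 54.4, 92, 89 and 68.2 units in CV taste buds, while its 4 values in adjacent LE, 6.84, 8.67, 11.1 and 10.8, were all under the minimum. Its FG taste bud values lay between 111 and 281 units (median 169), and those in adjacent LE between 11.8 and 19.4 (median 14.2). COL17A1 was therefore above the minimum in every taste bud sample and in no LE sample. Against LE the level was at least 2.97-fold higher in CV (log2 change 3.01 ± 0.29, adjusted p = 4.12e-06) and at least 7.12-fold higher in FG (log2 change 3.55 ± 0.24, adjusted p = 7.83e-08). The call held under each of the 12 alternatives applied to this probe set in both comparisons.

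DST, dystonin, whose epithelial form links hemidesmosomes to keratin and whose other forms serve nerve and muscle, was at 1974, 962, 1685 and 1469 units in CV taste buds and at 18.1, 94.4, 37.9 and 134 in adjacent LE. FG taste buds had DST between 1652 and 2401 units (median 1933) and adjacent LE between 17.3 and 604 (median 196), the highest of them in animal 3. Every taste bud sample was above every LE sample. The fold was 25-fold in CV (log2 change 4.76 ± 0.87, adjusted p = 0.000817) and 13.7-fold in FG taste buds (log2 change 3.87 ± 0.71, adjusted p = 0.000821), and the probe set does not say which form was measured.

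PLEC, plectin, the other linker to keratin filaments, changed least. It was at 107, 124, 124 and 146 units in CV taste buds and at 44.7, 87.4, 77.2 and 101 in adjacent LE, and lay between 133 and 246 units (median 227) in FG taste buds and between 64 and 168 (median 91.7) in adjacent LE. The CV groups did not overlap but lay close together, and the FG groups overlapped. The change was 1.67-fold in CV (log2 change 0.74 ± 0.27, adjusted p = 0.0448) and 2.16-fold in FG taste buds (log2 change 1.11 ± 0.22, adjusted p = 0.00141). The CV call was lost in 9 of 12 alternatives, and another probe set of PLEC was lower in CV (log2 change -1.14, adjusted p = 0.00921 in limma) and in FG taste buds (log2 change -0.69, adjusted p = 0.0365).

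**Figure D2:**
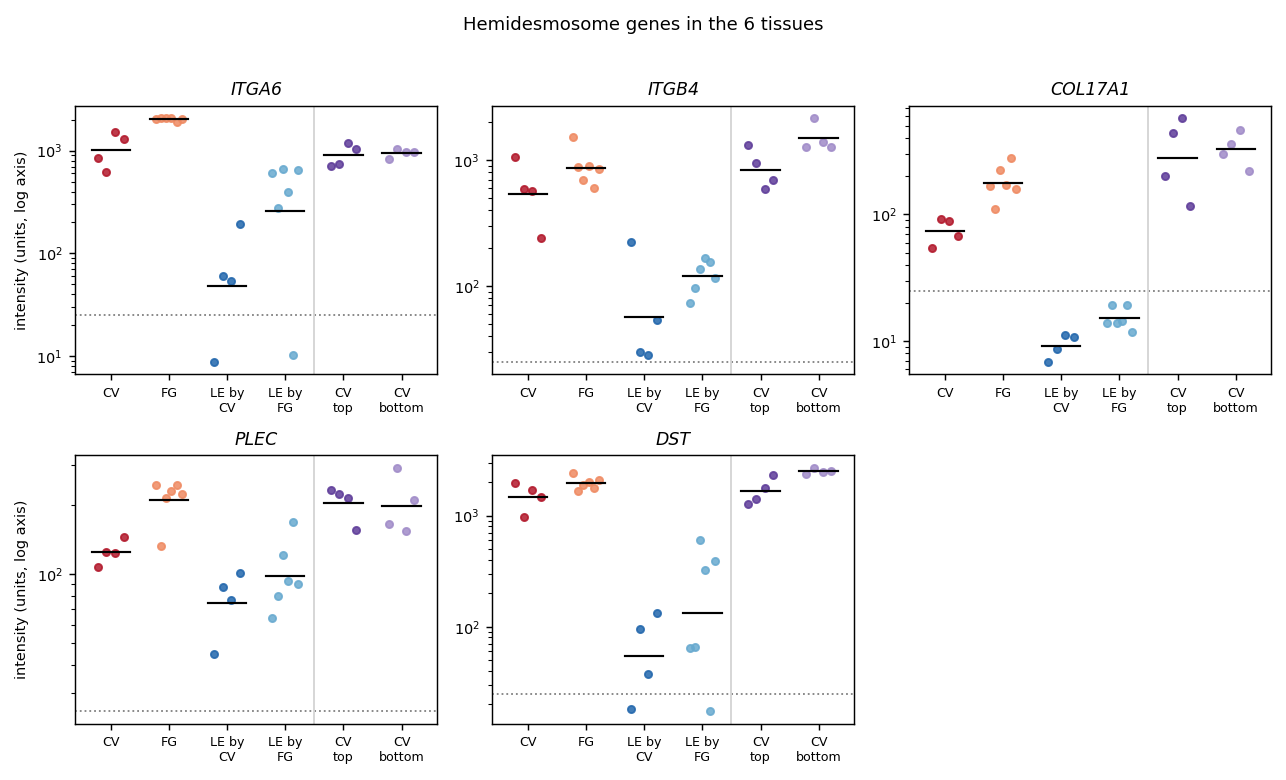
Intensity of the 5 hemidesmosome genes on a log axis, with 1 point per sample and a bar at the geometric mean of each tissue; the dotted line marks 25 units and the vertical line separates the 2 array sets. COL17A1 is under 25 units in all 10 LE samples and above it in every taste bud sample.

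Of the 12 laminin chains 9 were tested, and 7 were higher in CV and 5 in FG taste buds, with none lower. LAMB3, the beta chain of the laminin that hemidesmosomes bind, was among them, and LAMA3, the alpha chain of the same laminin, was not. LAMB3 was at 519, 908, 1446 and 738 units in CV taste buds and at 17.1, 15.2, 19.7 and 52.5 in adjacent LE. It lay between 777 and 1916 units (median 996) in FG taste buds and between 16.2 and 118 (median 23.1) in adjacent LE, where the sample of animal 4 was the high one. The groups were far apart in both comparisons, by at least 28-fold in CV (log2 change 5.21 ± 0.52, adjusted p = 5.85e-06) and 33.2-fold in FG taste buds (log2 change 5.23 ± 0.43, adjusted p = 5.98e-07).

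LAMA3, the alpha chain of that laminin, was dim everywhere. Its values were 14.3, 26.1, 23.4 and 17.6 units in CV taste buds and 32, 37.3, 11.2 and 17 in adjacent LE, between 22.3 and 44.4 (median 27.2) in FG taste buds and between 9.66 and 55.1 (median 27.1) in adjacent LE. The groups overlapped throughout, and neither change passed (log2 change -0.14 ± 0.50, adjusted p = 0.854 in CV; log2 change 0.15 ± 0.41, adjusted p = 0.783 in FG). Of its other probe sets tested, one was lower in CV (log2 change -1.27, adjusted p = 0.00359 in limma) and in FG taste buds (log2 change -1.85, adjusted p = 3.59e-05), and another passed in neither.

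LAMB1, a beta chain found in most basement membranes, was bright in CV taste buds and mostly under the minimum in adjacent LE. It was at 839.8, 391, 1040 and 1004 units there and at 6.59, 40.3, 15.9 and 4.55 in adjacent LE, a rise of at least 27.2-fold (log2 change 6.02 ± 0.96, adjusted p = 0.000296). Its fitted log2 change was the largest of any member in CV, but with values under 25 units raised to 25 the folds of COL4A5 (at least 34.9-fold) and LAMB3 (at least 28-fold) were larger. LAMB1 in FG taste buds lay between 246 and 1116 units (median 802) and in adjacent LE between 7.09 and 553 (median 54.3). The FG groups overlapped through the LE sample of animal 4, and the change was 8.82-fold (log2 change 3.52 ± 0.78, adjusted p = 0.00311). A second probe set of LAMB1 was called in neither comparison (log2 change 0.34 in CV and 1.15 in FG).

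The chains that join LAMB1 in the laminin typical of adult epithelia are LAMA5 and LAMC1. LAMC1 was higher in CV (8.34-fold, log2 change 3.06 ± 0.52, adjusted p = 0.000462) and FG taste buds (5.41-fold, log2 change 2.44 ± 0.42, adjusted p = 0.000545), with no overlap in either. LAMA5 was at 542, 1087, 1150 and 1287 units in CV taste buds against 155, 129.5, 251 and 52.5 in adjacent LE, and was called there (7.57-fold, log2 change 2.92 ± 0.50, adjusted p = 0.000533). In FG taste buds it was not called (log2 change 0.80 ± 0.41, adjusted p = 0.135), although 5 of 6 animals had the higher value in the taste buds. LAMA4, a chain of vessel and mesenchymal laminins, was likewise called in CV (log2 change 2.98 ± 0.58, adjusted p = 0.00127) and not in FG taste buds (log2 change 0.71 ± 0.47, adjusted p = 0.241), and LAMB2 was called in both (log2 change 2.09 ± 0.51, adjusted p = 0.00576 in CV; log2 change 1.26 ± 0.41, adjusted p = 0.0261 in FG), although its FG call was lost without animal 2, 5 or 6. The test of the difference between the CV and FG effects gave adjusted p = 0.137 for LAMA5 and 0.168 for LAMA4. LAMA2, a chain of muscle and nerve, passed in neither (0.872 in CV and 0.053 in FG, adjusted p) but was called lower in FG with centred arrays (log2 change -1.25, adjusted p = 0.0119), and LAMA1, LAMB4 and LAMC3 were too dim to be tested.

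**Figure D3:**
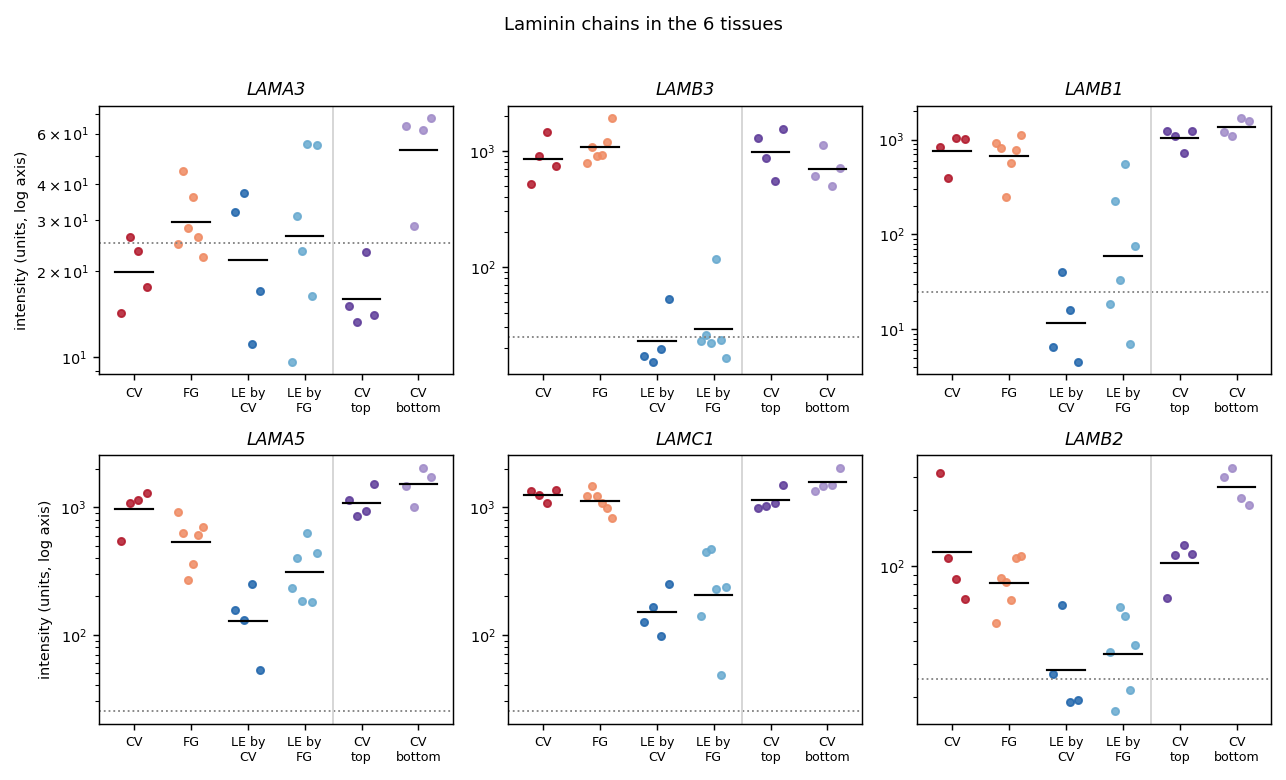
Intensity of 6 laminin chains on a log axis, with 1 point per sample and a bar at the geometric mean; the dotted line marks 25 units. LAMB3 is low in LE and above every adjacent LE sample in taste buds, while LAMA3 lies around 25 units in taste buds and LE alike.

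All 4 collagen IV chains tested were higher in both kinds of taste bud. All 4 took their name from the study's list, and COL4A1, COL4A3 and COL4A4 passed the filter only through taste buds, so that this count is not independent evidence. COL4A6, under 25 units throughout, was not tested. Without filter, limma had it lower in FG (log2 change -0.73, adjusted p = 0.0297) and not called in CV (log2 change -0.44, adjusted p = 0.323). COL4A5, an X-linked chain of epithelial and kidney basement membranes, was at 1106, 557, 1182 and 929 units in CV taste buds and at 13.3, 29.3, 9.07 and 13.5 in adjacent LE. It lay between 224 and 775 units (median 520) in FG taste buds and between 15.6 and 164 (median 42.1) in adjacent LE. There was no overlap, and the fold was at least 34.9-fold in CV (log2 change 5.94 ± 0.50, adjusted p = 1.16e-06) and 10.2-fold in FG taste buds (log2 change 3.47 ± 0.41, adjusted p = 1.93e-05). The CV effect exceeded the FG effect by 2.47 ± 0.65 on the log2 scale, which missed the threshold (limma adjusted p = 0.0842) and passed it once arrays were centred.

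COL4A4, which with COL4A3 and COL4A5 forms the network lost in Alport syndrome, was at 83, 67.4, 180.2 and 127 units in CV taste buds and at 6.16, 4.43, 4.59 and 4.39 in adjacent LE. FG taste buds had it between 14.5 and 121 units (median 81.4), with 2 of 6 values under the minimum, and adjacent LE between 4.2 and 9.17 (median 5.58). All LE values were far under the minimum, and the groups did not overlap. The change was at least 4.26-fold in CV (log2 change 4.46 ± 0.47, adjusted p = 8.75e-06) and at least 2.38-fold in FG taste buds (log2 change 3.22 ± 0.38, adjusted p = 2.24e-05). A second probe set of COL4A4 was also higher in both (log2 change 2.26 in CV and 2.00 in FG).

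COL4A3, whose gene lies next to COL4A4 in the RefSeq order of macaque genes, was higher as well (log2 change 2.56 ± 0.71, adjusted p = 0.0121 in CV; log2 change 3.07 ± 0.58, adjusted p = 0.000986 in FG), although its CV values ran from 7.8 to 172 units and the CV call was lost without animal 3 or 4. COL4A1, a chain of nearly all basement membranes, is the name that the study's list gives to a probe set which the annotation of the array calls IGSF8, so that its identity is uncertain. It was at 275, 50.3, 490.3 and 128 units in CV taste buds and at 16.3, 9.27, 11.9 and 67.1 in adjacent LE, and lay between 53.6 and 491 (median 223) in FG taste buds and between 7.71 and 145 (median 9.85) in adjacent LE. Single LE samples, of animal 5 near CV and of animal 3 near FG papillae, reached into the taste bud range. The change was at least 5.37-fold in CV (log2 change 3.20 ± 1.03, adjusted p = 0.0268) and at least 5.96-fold in FG taste buds (log2 change 3.77 ± 0.84, adjusted p = 0.00321). The CV call was lost without animal 1 (2.91, adjusted p = 0.124) or animal 4 (2.48, adjusted p = 0.141).

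Among the linkers and anchoring genes HSPG2 went the other way. HSPG2, perlecan, a heparan sulphate proteoglycan of basement membranes, was at 72, 59.3, 159.7 and 168 units in CV taste buds and at 1534, 2356, 942 and 1263 in adjacent LE. FG taste buds had it between 38.4 and 343 units (median 181) and adjacent LE between 120.5 and 1753 (median 530.1). The CV groups were far apart and the FG groups overlapped, with 5 of 6 animals lower in the taste buds. HSPG2 was 13.9-fold lower in CV (log2 change -3.80 ± 0.62, adjusted p = 0.000364) and 3.54-fold lower in FG taste buds (log2 change -1.82 ± 0.51, adjusted p = 0.0113). The FG call of HSPG2 was kept without animal 3 (log2 change -1.47, adjusted p = 0.0459) and lost without animal 5 (log2 change -1.56, adjusted p = 0.059). A second probe set of HSPG2 was lower in CV (log2 change -1.35, adjusted p = 0.00647) and not called in FG taste buds (-0.57, adjusted p = 0.106).

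COL7A1, the collagen of anchoring fibrils, was at 122, 445, 292 and 229 units in CV taste buds and at 28.6, 18.9, 42 and 38.8 in adjacent LE, with no overlap (at least 7.46-fold, log2 change 3.00 ± 0.81, adjusted p = 0.0107). COL7A1 was not called in FG taste buds (log2 change 1.32 ± 0.66, adjusted p = 0.124), where the LE sample of animal 3 was at 296 units and the other 5 LE samples at 50.5 or less. Without animal 3 COL7A1 was called higher in FG taste buds too (log2 change 2.11, adjusted p = 0.00906), and the difference between the CV and FG effects over all animals was not called (adjusted p = 0.476). AGRN, agrin, another heparan sulphate proteoglycan, was higher in CV (log2 change 1.67 ± 0.49, adjusted p = 0.0167) and FG taste buds (log2 change 2.29 ± 0.40, adjusted p = 0.000574), but its second probe set was lower in FG (log2 change -0.93, adjusted p = 0.0118), and the CV call was lost without animal 3 or 4. COL18A1, the collagen from which endostatin is cut, was higher in both (log2 change 1.57 ± 0.58, adjusted p = 0.0488 in CV; log2 change 2.19 ± 0.47, adjusted p = 0.00253 in FG), a call that 9 of 12 alternatives removed in CV. The nidogens NID1 and NID2 were too dim to be tested here.

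**Figure D4:**
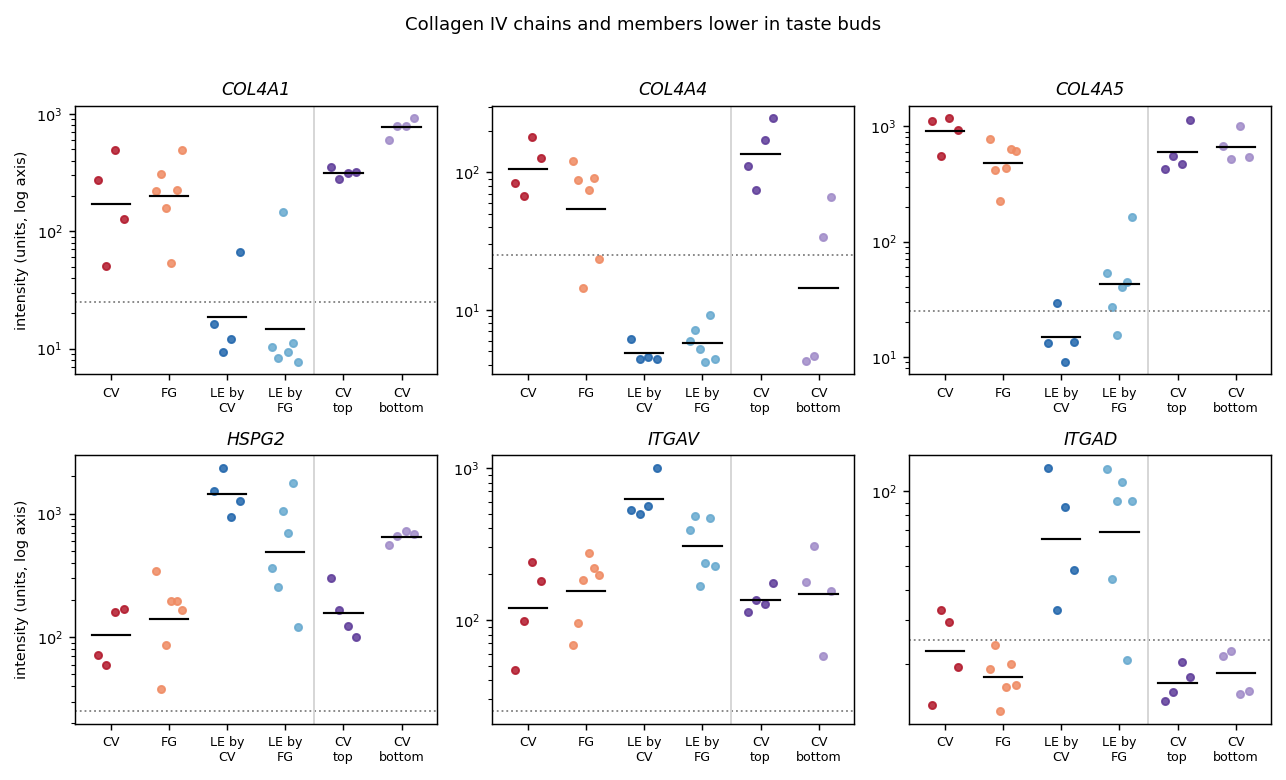
Intensity of 3 collagen IV chains and of HSPG2, ITGAV and ITGAD on a log axis, with 1 point per sample and a bar at the geometric mean; the dotted line marks 25 units. The collagen chains are higher in taste buds than in nearly all LE samples, and HSPG2 and ITGAV show the reverse order in CV taste buds.

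The other integrin chains were divided. Of 9 tested alpha chains 2 were higher and 2 lower in either kind of taste bud, and of 6 beta chains 2 were higher in CV, and 2 higher and 2 lower in FG taste buds. ITGA2, whose integrin with ITGB1 binds collagen, was at 305, 386, 435 and 705 units in CV taste buds and at 12.7, 112, 14.4 and 198 in adjacent LE. FG taste buds had ITGA2 between 135 and 468 units (median 273), and in adjacent LE between 8.02 and 22 (median 15.2), always under the minimum. The CV-adjacent LE samples of animals 3 and 5 had clear ITGA2 signal and still lay below every taste bud sample. ITGA2 was 7.14-fold higher in CV (log2 change 3.28 ± 0.60, adjusted p = 0.000787) and at least 10.8-fold higher in FG (log2 change 4.27 ± 0.49, adjusted p = 1.39e-05). A second probe set was not called in CV (log2 change 1.31, adjusted p = 0.175) and higher in FG taste buds (3.15, adjusted p = 0.000976).

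ITGA3, which with ITGB1 binds laminin, was higher in CV (at least 7.84-fold, log2 change 3.32 ± 0.45, adjusted p = 8.25e-05) and in FG taste buds (at least 5.54-fold, log2 change 2.92 ± 0.37, adjusted p = 3.88e-05), with no overlap, and its second probe set was called in neither. ITGB1, the common partner of many alpha chains, was called in CV (log2 change 1.86 ± 0.49, adjusted p = 0.00982) and not in FG taste buds (log2 change 0.89 ± 0.40, adjusted p = 0.0894); most of its values in FG taste buds and LE were under 25 units, the CV call was lost without animal 1 (1.45, adjusted p = 0.0756), and a second probe set gave the opposite pair of calls (log2 change 0.91 in CV, adjusted p = 0.34, and 2.11 in FG, adjusted p = 0.0104). ITGB5 was higher in both (log2 change 2.67 ± 0.55, adjusted p = 0.00206 in CV; log2 change 1.97 ± 0.45, adjusted p = 0.00376 in FG), while ITGB8 was called in FG (log2 change 1.06 ± 0.37, adjusted p = 0.0323), a call lost without animal 1, 2, 3 or 4, and not in CV (log2 change 0.36 ± 0.45, adjusted p = 0.563); the difference between the effects was not called (adjusted p = 0.612). ITGB5 and ITGB8 both pair with ITGAV.

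ITGAV itself, the alpha chain of receptors for vitronectin and latent growth factor, was lower. It was at 47.1, 97.9, 242 and 180.1 units in CV taste buds and at 528, 495, 564 and 1004 in adjacent LE, with no overlap (5.21-fold lower, log2 change -2.38 ± 0.47, adjusted p = 0.00156). In FG taste buds it lay between 68.9 and 277 units (median 189.7) and in adjacent LE between 168 and 484 (median 314), which was not called (log2 change -0.97 ± 0.39, adjusted p = 0.0593). It was called in FG without animal 4 (log2 change -1.20, adjusted p = 0.0446 in limma), with centred arrays (-1.41, adjusted p = 0.00811) and with all LE samples as 1 group (-1.33, adjusted p = 0.0139). The difference between both effects was not called either (adjusted p = 0.293).

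The other members called lower were ITGAD, ITGB2, ITGB3 and ITGA8. ITGAE and ITGB7 were brighter than these and not called (log2 change -0.21 in CV and -0.06 in FG for ITGAE, -0.32 and -0.41 for ITGB7). ITGAD, an alpha chain of leukocytes, was at 13.6, 33.1, 29.6 and 19.3 units in CV taste buds and at 125, 33, 86.1 and 48.2 in adjacent LE, and lay between 12.8 and 23.9 (median 17.7) in FG taste buds and between 20.8 and 123 (median 91.3) in adjacent LE. Most taste bud values were under the minimum, and the groups overlapped narrowly (log2 change -1.51 ± 0.52, adjusted p = 0.036 in CV; log2 change -1.95 ± 0.42, adjusted p = 0.00268 in FG). The CV call of ITGAD was lost without animal 1, 4 or 5. ITGB2, the beta chain of leukocyte integrins, lay between 26.5 and 40.8 units (median 35.6) in FG taste buds and between 35.1 and 86.3 (median 56.2) in adjacent LE and was lower there (log2 change -0.72 ± 0.24, adjusted p = 0.0253). In CV it was lower in 4 of 4 animals and not called (log2 change -0.57 ± 0.29, adjusted p = 0.144). The CV and FG effects were not called different (log2 difference 0.16, adjusted p = 0.883). A different probe set of ITGB2 was lower in CV (log2 change -2.35, adjusted p = 0.00328 in limma). In FG that probe set was not called (log2 change 0.16, adjusted p = 0.779), nor was the difference between its effects (-2.51, adjusted p = 0.0918). The other tested probe set of ITGB2 was lower in FG (log2 change -0.91, adjusted p = 0.00467). In CV it was not called (log2 change -0.67, adjusted p = 0.0629).

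ITGB3, the beta chain of platelet integrin, lay between 8.42 and 14.3 units (median 13.8) in FG taste buds, all under the minimum, and between 16.8 and 53 (median 32) in adjacent LE (log2 change -1.17 ± 0.21, adjusted p = 0.000766). Only 4 of the 20 samples reached 25 units, all of them LE adjacent to FG papillae, and with values under 25 raised to 25 ITGB3 was not called (log2 change -0.38, adjusted p = 0.0941). ITGA8, a chain of mesenchymal cells, lay between 25 and 70.9 units (median 37) in FG taste buds and between 45.3 and 101 (median 71.5) in adjacent LE (log2 change -0.82 ± 0.27, adjusted p = 0.0244). The CV change of ITGA8 was of like size, lower in 4 of 4 animals and not called (log2 change -0.70 ± 0.33, adjusted p = 0.109), and the difference between the effects was 0.12 (adjusted p = 0.928). The ITGA8 call was lost without animal 2, 3 or 4 and the ITGB2 call without animal 1, 2, 3 or 4, while without any 1 of animals 1 to 4 ITGB3 no longer reached the minimum in enough samples to be tested. The summed intensity of 7 leukocyte markers ran from 239 to 527 units in CV taste buds, from 3632 to 5222 in adjacent LE, from 359 to 871 in FG taste buds and from 969.8 to 2892 in adjacent LE, mostly through CD68 and LYZ, which were both called lower; their part in the ITGAD and ITGB2 results was not tested. ITGA2B, ITGA7, ITGA11, ITGAE and ITGB7 passed in neither comparison (with centred arrays ITGA2B and ITGA11 were called lower in FG), ITGB3BP was higher in both (log2 change 3.12 ± 0.63, adjusted p = 0.00166 in CV; log2 change 2.76 ± 0.51, adjusted p = 0.000891 in FG), and ITGA1, ITGAM and ITGB6 were not tested.

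Stromal and vessel markers were set beside the members that were higher. Of 7 tested fibroblast markers 1 was called, POSTN, higher in CV and FG taste buds. SFRP2 was under 25 units in every CV and FG taste bud sample, and also in every sample of LE adjacent to CV papillae. Of the 9 named fibroblast markers, 2 were at 25 units or more in every CV taste bud sample and 2 under 25 in all of them. In FG taste buds these counts were 3 and 2. Of 4 tested endothelial markers 1 was called, CLDN5, which is not limited to vessels, also higher in both. Of all tested probe sets 17.3% were higher in CV and 21.1% in FG, so that both counts lie near the background. The summed intensity of 9 fibroblast markers ran from 669 to 4508 units in CV taste buds, from 949 to 2175 in adjacent LE, from 837 to 3849 in FG taste buds and from 764 to 5190 in adjacent LE. That of 8 endothelial markers was 549.5 to 1821, 178 to 414, 710.3 to 1450 and 110.3 to 1333 units in the same order. The part of such cells in the laminin and collagen IV results was not tested.

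Between CV and FG taste buds 1 member was called. Of 38 tested members none was higher in CV and 1 was lower, against 0.378% and 0.493% of all tested probe sets; at an unadjusted p under 0.05 in limma, 4 were higher and 2 lower, and the methods' paired test, unadjusted, had 1 higher and 5 lower. The member called was COL17A1, with the CV values and FG range given above, which do not overlap (2.4-fold lower in CV, log2 change -1.37 ± 0.28, adjusted p = 0.034). That call was lost when animal 1, 3, 4, 5 or 6 was left out, with an adjusted p between 0.0507 and 0.24 in limma. In each of the 4 animals with both tissues the CV value lay below the FG value for all 5 hemidesmosome genes, as it did for 12% of all tested probe sets. ITGA6 did not overlap between them (2.01-fold lower in CV) and was not called (log2 change -0.82 ± 1.08, adjusted p = 0.856), and neither were DST (log2 change -0.35 ± 0.83, adjusted p = 0.934), ITGB4 (log2 change -0.73 ± 0.52, adjusted p = 0.667) and PLEC (log2 change -0.89 ± 0.26, adjusted p = 0.149). Over the 38 members, 3 had the CV value above and 9 below the FG value in all 4 animals, and 2 had CV and FG samples that did not overlap, against 4.57% of all tested probe sets. LE adjacent to CV papillae did not differ in a called member from LE adjacent to FG papillae, where 0.97% of all tested probe sets were higher and 0.294% lower and 2 members were higher and 6 lower at an unadjusted p under 0.05; the samples of 2 members did not overlap, against 4.75% of all tested probe sets. The interaction, the CV effect minus the FG effect, was likewise called for none of 38, against 0.271% of all tested probe sets higher and 0.6% lower, with 4 members higher and 2 lower at an unadjusted p under 0.05. Between the LE groups, ITGA6 had a log2 change of -2.22 over all animals. Without animal 5 it was called lower in LE adjacent to CV papillae (log2 change -4.07, adjusted p = 0.0203 in limma). Another tested probe set of ITGA6 was not called there over all animals (log2 change 0.35).

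The upper and lower parts of CV taste buds were compared within animals 7 to 10. Of 34 tested members 2 were higher in the top and 3 lower, against 1.68% and 1.46% of all tested probe sets (3.14% in either direction), and 3 and 6 at an unadjusted p under 0.05. The fit has 3 residual degrees of freedom, every one of the 5 calls was lost under some alternative, and without any 1 animal 4 of them were lost and LAMA3 could no longer be tested. The samples did not overlap for 8 of the 34, and for 14% of all tested probe sets. ITGA2 was at 938, 1241, 1093 and 1054 units in the top of animals 7, 8, 9 and 10 and at 259, 339, 296 and 253 in the bottom. The top values were all above the bottom values by a like factor, 3.78-fold overall (log2 change 1.92 ± 0.24, adjusted p = 0.0245), and the second probe set of ITGA2 was higher in the top too (log2 change 2.11, adjusted p = 0.0238). COL4A4 was at 111, 74.1, 170.4 and 248 units in the top and at 4.23, 4.63, 34.1 and 65.6 in the bottom, where animals 7 and 8 were far under the minimum (at least 3.97-fold higher, log2 change 3.24 ± 0.51, adjusted p = 0.0363).

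Lower in the top were COL7A1, HSPG2 and LAMA3. COL7A1 was at 118, 80.4, 78 and 99.1 units in the top and at 435, 365, 1151 and 567 in the bottom (6.13-fold lower, log2 change -2.62 ± 0.38, adjusted p = 0.0322). HSPG2 was at 299, 165, 124 and 99.9 units in the top and at 556, 657, 724 and 680.3 in the bottom (4.15-fold lower, log2 change -2.05 ± 0.37, adjusted p = 0.0435). Neither pair of groups overlapped. LAMA3 was at 15.1, 13.3, 23.4 and 14 units in the top, all under the minimum, and at 63.7, 28.7, 61.6 and 68 in the bottom, with animal 8 apart from the other 3 (at least 2.11-fold lower, log2 change -1.72 ± 0.30, adjusted p = 0.0418). It passed the filter only through the 4 bottom samples, so that it could be tested only as a gene that differs, and without filter it was not called (adjusted p = 0.0755). COL4A4 likewise passed only through the top, with 2 bottom samples at 25 units or more, and was not called without filter (adjusted p = 0.0919). COL7A1 and HSPG2 also lost their calls without filter (adjusted p = 0.0738 and 0.0947 in limma), and ITGA2 kept its call (adjusted p = 0.0496).

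The hemidesmosome genes were not called between the fractions, with adjusted p between 0.208 and 0.957. ITGA6 was at 709.7, 738, 1198 and 1043 units in the top and at 826, 1041, 974 and 974 in the bottom, and COL17A1 at 201, 441, 580.1 and 116 and 301, 364, 469.7 and 222. Neither showed the same order in all 4 animals. DST was at 1266, 1416, 1785 and 2340 units in the top and at 2364, 2698, 2462 and 2519 in the bottom, with every top value below every bottom value but no call (log2 change -0.60 ± 0.27, adjusted p = 0.275). ITGB4 was at 1306, 940.4, 589.9 and 691 and 1275, 2161, 1397 and 1278 units (log2 change -0.82 ± 0.31, adjusted p = 0.208), and PLEC at 233, 223, 216 and 156 and 165, 292, 154 and 210.4. LAMB3 was not called either (adjusted p = 0.478), and COL4A1 and LAMB2 were lower in the top in all 4 animals with no overlap but missed the threshold (log2 change -1.29 ± 0.27, adjusted p = 0.0575; log2 change -1.35 ± 0.32, adjusted p = 0.0771).

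Other genes of the basal side moved with the fractions. TP63, a factor of basal epithelial cells, ranged from 88.6 to 788 units at the top and from 1284 to 3558 at the bottom (log2 change -3.16 ± 0.49, adjusted p = 0.0348 in limma). The summed intensity of 9 fibroblast markers ranged from 802 to 2066 units at the top and from 5472 to 7610 at the bottom, with DCN, LUM, DPT, FBLN1, COL1A2 and POSTN called lower in the top, while that of 8 endothelial markers was 782 to 1355 and 866 to 1694. Of the 9 fibroblast markers, 7 were at 25 units or more in every bottom sample. None was under 25 units in all of them, COL3A1 only through animal 10 at 25.03 units. The part of stromal cells in the COL7A1 and HSPG2 results was not tested.

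**Figure D5:**
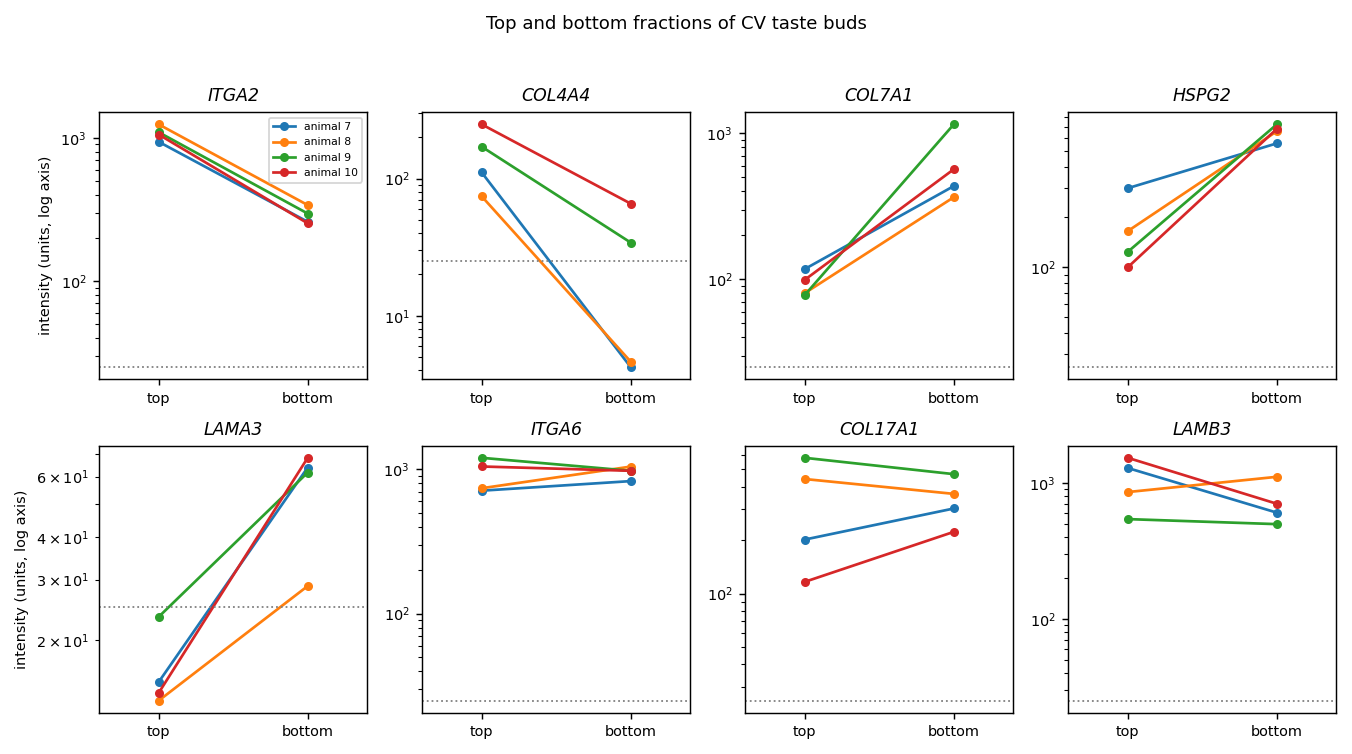
Intensity of the 5 called members and of ITGA6, COL17A1 and LAMB3 at the top and at the bottom of CV taste buds, with 1 line per animal on a log axis and the dotted line at 25 units. ITGA2 and COL4A4 fall from top to bottom in all 4 animals, COL7A1, HSPG2 and LAMA3 rise, and ITGA6, COL17A1 and LAMB3 do not run the same way in all 4 animals.

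Levels in the fractions and in whole CV taste buds can only be set side by side, because array set and tissue cannot be told apart. COL17A1 was at 116 to 580.1 units in the fractions and at 54.4 to 92 in whole CV taste buds, and NID2, a nidogen, was at 24.8 to 275 units in the fractions and at 11.1 to 97.2 in whole CV taste buds. ITGB1 was at 112 to 365 units in the fractions and at 35.1 to 99.4 in whole CV taste buds.

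Genes that work with the members were followed in 4 lists, for which values after ± are again standard errors of log2 changes. As for the members, probe sets were named first from the study's list of genes higher in taste buds. Counts of higher genes in these lists may therefore not be independent of that list. Of 20 tested proteins on the cytoplasmic side of integrins, 3 were higher and 5 lower in CV, and 6 higher and 3 lower in FG taste buds, next to 17.3% higher and 18% lower of all tested probe sets in CV and 21.1% and 20.2% in FG. These shares lie near the background, and the genes named are single values. PARVA, an adaptor of the integrin-linked kinase, was higher in both (log2 change 4.82 ± 0.91 in CV, 4.21 ± 0.74 in FG), and ACTN4, an actin crosslinker, was lower in both (-2.53 ± 0.30 and -1.13 ± 0.24). PXN, paxillin, was higher in both (2.25 ± 0.30 and 1.58 ± 0.24) and KANK1 lower in both (-2.25 ± 0.35 and -1.61 ± 0.29), and TNS3 and FERMT1, a kindlin of epithelia, were called higher in FG (2.31 ± 0.61 and 1.96 ± 0.44) and not in CV (1.47 ± 0.74 and 0.57 ± 0.54), with no called difference between the effects (adjusted p = 0.727 and 0.368 in limma). Between the fractions limma called none of 19 genes of this list and none of 12 of the next. Of 12 tested receptors and partners at the basement membrane, 5 were higher and 2 lower in CV and 5 higher and 1 lower in FG taste buds, beside the same shares of all tested probe sets. SGCE and SGCB, sarcoglycans, were higher in both (2.44 ± 0.68 and 1.98 ± 0.51 in CV; 3.15 ± 0.56 and 2.07 ± 0.42 in FG), as were SDC4, a syndecan (1.46 ± 0.45 and 1.58 ± 0.37), and CD81, a tetraspanin (2.00 ± 0.37 and 1.35 ± 0.30). SDC1, a syndecan of epithelia, was lower in both (-2.08 ± 0.24 and -1.44 ± 0.19).

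Of 16 tested genes of collagen and basement membrane assembly, 8 were higher and 2 lower in CV, and 7 higher and 1 lower in FG taste buds. Of all tested probe sets, 17.3% were higher and 18% lower in CV, and 21.1% and 20.2% in FG. The median log2 change without filter was 1.05 and 1.14 over the 19 named, beside -0.06 and -0.20 over all probe sets. FRAS1, a protein of the epithelial basement membrane lost in Fraser syndrome, was higher in both (5.38 ± 0.44 in CV, adjusted p = 8.59e-07; 6.65 ± 0.36 in FG, adjusted p = 8.46e-09). SMOC2 and NPNT, the ligand of the ITGA8 integrin, were called higher in CV (5.03 ± 0.79 and 4.79 ± 1.38) and not in FG taste buds (1.61 ± 0.65 and 0.94 ± 1.12), with no called difference between the effects (adjusted p = 0.129 and 0.33 in limma). TGFBI and PLOD3, a collagen lysyl hydroxylase, were higher in both (3.38 ± 1.11 and 3.86 ± 0.68 in CV; 2.78 ± 0.91 and 2.30 ± 0.56 in FG). Between the fractions none of 17 was higher in the top and 4 were lower, against 1.68% and 1.46% of all tested probe sets. Among the 4 were FBLN1 (-2.62 ± 0.40), LOXL2 (-2.32 ± 0.30) and FREM2 (-2.20 ± 0.27).

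Of 17 tested matrix ligands outside the basement membrane, 4 were higher and 2 lower in CV and in FG taste buds, which is also near the share of all tested probe sets. THBS2, a thrombospondin, was higher in both (8.40 ± 0.91 in CV, 7.35 ± 0.75 in FG), as were POSTN (3.79 ± 1.16 and 5.40 ± 0.95), COL6A3 (3.13 ± 1.12 and 2.39 ± 0.91) and TNC, tenascin C (3.84 ± 0.50 and 1.89 ± 0.41). SPP1, osteopontin, a ligand of ITGAV integrins, was lower in CV taste buds (-3.95 ± 0.45) and not called in FG (0.23 ± 0.36), and the difference between both effects was called (-4.17 ± 0.57, adjusted p = 0.00447 in limma). Of the 14 tested in the fractions, 1 was higher in the top and 6 lower, against 1.68% and 1.46% of all tested probe sets. TNC, POSTN and COL1A2 had the largest changes (-5.66 ± 0.25, -3.43 ± 0.53 and -2.62 ± 0.31).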

How the data were processed

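Laser-captured cells were profiled on rhesus macaque 3′ arrays, and the authors deposited linear intensity values from GC-RMA normalization of all arrays; the version of that tool was not given in the sources used here. Depth in the sense of read counts does not apply, and the number of arrays limits the precision. The log2 intensities were fitted with limma 3.58.1 in R 4.3.3, with the tissue as group and the animal as block, in a fit of 20 samples (26176 probe sets) and a fit of 8 (21167 probe sets); probe sets needed at least 25 units in 4 samples. P-values were adjusted over all tested probe sets by Benjamini-Hochberg. Probe sets took their name from the study's list of taste bud genes, otherwise from the array annotation; 26246 of 52024 had no name. The averages, ratios and p-values in the study's own gene lists were not used.

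The members and gene lists were chosen with earlier results of these data known. All hemidesmosome genes, LAMA3, LAMB3 and, per comparison, the 6 called members with the largest change in each direction are described in full, and per comparison the 3 called genes of each list with the largest change are named, PXN and KANK1 as a tie; TP63, SPP1 in FG and members outside this rule were chosen after their values were seen. One member is counted in the totals and not reported here. The labels name the animal of each sample. Same-animal samples deviated together slightly, with a mean correlation of 0.05 to 0.12 against -0.04 to -0.01 for other animals. The fitting step was first checked on drawn values with known changes. Of 50 changes of 8-fold it recovered 32 in CV and 41 in FG taste buds against LE. It recovered 36 between CV and FG taste buds, 35 between the LE groups and 21 between the fractions. A gene that was not called can therefore still differ by a large factor. Alternatives were the filter, a floor at 25 units, centring, the block, pooled LE, the methods' paired test, a 5-fold minimum, the choice of probe set and leaving out each animal.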

Additional observations from a re-analysis of the deposited data

Results flagged for a closer look

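A sample was set apart when its gap to the nearest other sample, on the log2 scale, exceeded Dixon's limit for its group. Chance gives about 1 such sample in 20 groups, and here 12 of 216 groups had one. In LE adjacent to FG papillae, animal 3 had COL4A1 at 145 units (others 7.71 to 11.1) and ITGAM, a leukocyte integrin chain, at 239 (others 9.25 to 20.4), in the library that also carried muscle and stromal transcripts. In the same tissue, ITGA6 was at 10.2 units in animal 5 (others 275 to 662), LAMB3 at 118 in animal 4 (others 16.2 to 25.6) and ITGB3BP at 116 in animal 6 (others 7.83 to 18.4).

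In FG taste buds, animal 2 had ITGA1, a collagen and laminin receptor chain, at 65.5 units (others 5.87 to 14.4) and PLEC at 133 (others 214 to 246). Animal 4 had NID2 at 132 units (others 7.06 to 20.7), and animal 5 had ITGA6 at 1877 (others 2028 to 2079). ITGA2B was at 23.3 units in animal 3 in LE adjacent to CV papillae (others 43.5 to 48.9). COL18A1 was at 296 units in animal 7 at the top of CV taste buds (others 131 to 147), and LAMA3 at 28.7 in animal 8 at the bottom (others 61.6 to 68). The causes were not tested.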

How the results depend on the processing

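No call changed direction with the probe set unchanged, while another probe set was called in the opposite direction for 1 CV call and 2 FG calls. Without the animal as replicate block, the members higher and lower were 22 and 3 in CV and 20 and 5 in FG taste buds against LE, 0 and 1 in CV against FG taste buds, and 1 and 5 between the fractions, where the paired fit had 2 and 3; PLEC and COL18A1 in CV, ITGB8 in FG and COL4A4 between the fractions lost their call, and no other call was lost without the pairing. The methods' paired test after Benjamini-Hochberg adjustment called 8 higher and 0 lower in CV, 2 lower in FG, 0 lower in CV against FG and 0 of either kind between the fractions. Unadjusted, it called 5 lower in CV against LE, 1 higher and 5 lower in CV against FG, 1 higher and 4 lower between the LE groups, and 6 lower between the fractions. Centring gave 9 lower in FG and 1 higher in the interaction (COL4A5). With every tested probe set of the members, 8 were lower in CV and 9 in FG. A 5-fold minimum left 0 lower in FG and in CV against FG, and 1 higher and 1 lower between the fractions. With names from the annotation alone, 0 were lower in CV against FG. Without filter, 1 was higher and 0 lower between the fractions.

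Leaving out each animal in turn gave 18 to 23 higher and 2 to 3 lower in CV, 19 to 21 higher and 2 to 7 lower in FG (2 without animal 2 or 3, 3 without animal 1 or 4), 0 to 1 lower in CV against FG, 0 to 1 lower between the LE groups (1 without animal 5), and 0 higher and 0 lower between the fractions without any of the 4 animals. The cause of these shifts was not tested. Limits are the small groups, with 3 residual degrees of freedom in the fractions, levels near 25 units for many members, probe sets of 1 gene that disagree (of 11 called members with other tested probe sets, 6 in CV and 5 in FG had none of these called), names that depend on a list chosen on these samples, and captured areas that mix cell types.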
